A study of Mus musculus with 24 samples.

Results

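The Ms4a genes encode small proteins that cross the cell membrane 4 times, and 6 of them, *Ms4a4a*, *Ms4a4c*, *Ms4a6b*, *Ms4a6c*, *Ms4a6d* and *Ms4a7*, were described here across naive and IL-4/IL-13–treated mouse macrophages and across IL-4/IL-13–treated macrophages that also received an inhibitor. The 6 genes were taken by name from a list drawn up with results of these data already in view, and their symbols were matched to the Ensembl identifiers of the deposited gene counts. The gene table held 56884 genes, of which 21 carried an Ms4a symbol, and 13679 genes, among them all 6 members, passed the filter on low counts. Members were thus chosen by name with their levels and fold changes in these libraries open to view, and which comparison decided is not recorded. All of their levels and fold changes are therefore given as a description without *P* values.

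Bone marrow–derived macrophages (BMDMs), which are grown from marrow with M-CSF and express the macrophage genes *Adgre1*, *Csf1r* and *Cd68*, came from 4 wild-type C57BL/6J female mice aged 9 weeks and numbered 1, 2, 4 and 5. Each mouse gave 1 library to each of 6 groups, which makes 24 RNA-seq libraries with 4 per group. The naive group received no cytokine, and the other groups received both IL-4 and IL-13, each at 20 ng/ml, for 24 hours, either alone or after 1 hour of pretreatment with an inhibitor that then stayed on the cells. The inhibitors were tunicamycin at 5 µg/ml, which blocks N-linked glycosylation in the endoplasmic reticulum, Sal003 at 10 µM, a salubrinal derivative that slows the dephosphorylation of the translation factor eIF2α, and oligomycin at 1 µM, an inhibitor of ATP synthase in mitochondria. A pair of groups received oligomycin, and 1 of the pair also received ISRIB at 1 µM, a compound that counteracts the effect of phosphorylated eIF2α on translation. The sample titles and the library names disagreed on which of the pair received ISRIB, so they are called here set A (ISRIB in the titles, oligomycin alone in the library names) and set B (the reverse). No measured value was used to settle this, and a difference between the sets carries no direction with respect to ISRIB.

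MS4A proteins sit in the plasma membrane or in intracellular membranes, where several of them associate with immune receptors and shape their signaling. The best known are MS4A1, the B cell antigen CD20, and MS4A2, the β chain of the high-affinity IgE receptor of mast cells and basophils. In macrophages, MS4A4A associates with the β-glucan receptor dectin-1 (encoded by *Clec7a*), whereas MS4A7 is widely used as a marker of tissue macrophages. The MS4A4 and MS4A6 branches were expanded in the mouse, so *Ms4a4c*, *Ms4a6b*, *Ms4a6c* and *Ms4a6d* have no simple counterparts in human. Interferon is known to raise several mouse Ms4a genes in myeloid cells.

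All 6 members lie in 1 cluster on chromosome 19. In the GENCODE annotation of GRCm39, *Ms4a7* spans 11298403 to 11313510 on the reverse strand, followed on the forward strand by *Ms4a4a* at 11352823 to 11370154, *Ms4a4c* at 11382131 to 11404610, *Ms4a6c* at 11446718 to 11462204 and *Ms4a6b* at 11493876 to 11508620. *Ms4a6d* closes the row on the reverse strand at 11563968 to 11582213. *Ms4a4b* lies between *Ms4a4c* and *Ms4a6c*, and *Ms4a14* lies beside *Ms4a7*. The map of the cluster shows that the expressed genes stand next to each other, apart from *Ms4a8a* and the silent *Ms4a4d*.

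**Figure D1:**
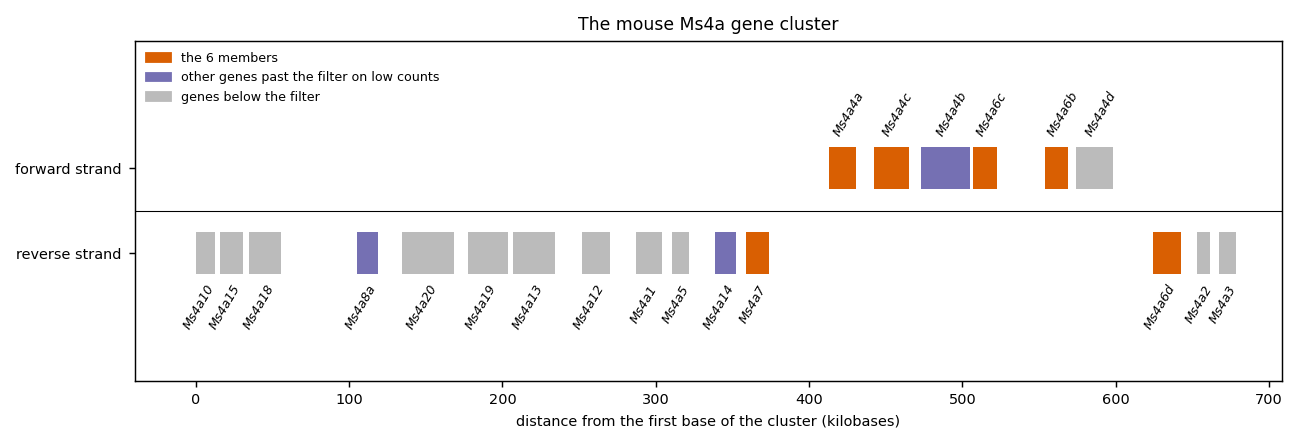
Positions of the 21 Ms4a genes along the cluster, as distance in kilobases from its first base, with genes of the forward strand above the line and genes of the reverse strand below it. The 6 members (orange) lie side by side with *Ms4a14* and *Ms4a4b* (purple), which also passed the filter on low counts, and with *Ms4a4d* (grey), which did not.

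The upstream sequences of *Ms4a6b* and *Ms4a6c* are shown because these genes carry near copies of the same promoter and yet returned to different levels with tunicamycin, and those of *Ms4a4c* and *Ms4a7* are shown for contrast. Each is the RefSeq window from 250 bases before to 50 bases after a gene start in GRCm38.p6, on the strand of the gene. RefSeq windows were found for 5 of the 6 members, and none was found for *Ms4a6d*. In *Ms4a6b* and *Ms4a6c*, capitals mark the runs of at least 20 bases that the windows share. In *Ms4a7*, capitals mark a match to the STAT6-type motif (TTC and GAA with any 4 bases between them), which the factor STAT6 of the IL-4 pathway can bind. *Ms4a4c* has no capitals because no searched motif was found in it.
Ms4a6b, chr19:11518309-11518608, forward strand: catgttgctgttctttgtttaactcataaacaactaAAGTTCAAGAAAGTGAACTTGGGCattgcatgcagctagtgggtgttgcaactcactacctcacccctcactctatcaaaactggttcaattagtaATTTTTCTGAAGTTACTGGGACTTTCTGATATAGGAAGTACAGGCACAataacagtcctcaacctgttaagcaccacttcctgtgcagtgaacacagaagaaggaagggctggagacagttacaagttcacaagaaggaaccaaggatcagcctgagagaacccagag
Ms4a6c, chr19:11469118-11469417, forward strand: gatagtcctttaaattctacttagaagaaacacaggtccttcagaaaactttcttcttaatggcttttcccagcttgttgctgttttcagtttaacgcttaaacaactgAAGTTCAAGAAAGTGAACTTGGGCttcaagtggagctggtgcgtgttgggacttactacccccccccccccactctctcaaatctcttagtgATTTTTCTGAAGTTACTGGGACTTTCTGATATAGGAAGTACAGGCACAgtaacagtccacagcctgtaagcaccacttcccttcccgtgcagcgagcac
Ms4a7, chr19:11336097-11336396, reverse strand: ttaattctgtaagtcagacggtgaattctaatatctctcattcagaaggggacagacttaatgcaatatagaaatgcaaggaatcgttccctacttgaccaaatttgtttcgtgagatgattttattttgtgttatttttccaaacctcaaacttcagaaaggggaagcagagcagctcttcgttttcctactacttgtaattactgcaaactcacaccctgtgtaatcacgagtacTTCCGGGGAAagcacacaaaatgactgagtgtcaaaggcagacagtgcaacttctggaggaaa
Ms4a4c, chr19:11407411-11407710, forward strand: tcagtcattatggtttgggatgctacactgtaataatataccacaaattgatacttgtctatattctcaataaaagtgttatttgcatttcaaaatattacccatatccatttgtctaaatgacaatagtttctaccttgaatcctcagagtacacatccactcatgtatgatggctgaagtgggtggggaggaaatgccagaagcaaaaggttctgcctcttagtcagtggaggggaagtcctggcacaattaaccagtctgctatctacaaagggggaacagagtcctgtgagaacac

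Over 220 aligned bases, the *Ms4a6b* and *Ms4a6c* windows were 85.9% identical, and their longest shared run was 48 bases. All other pairs of windows were between 56.2% and 64.7% identical. A STAT6-type match stood 8 bases after the start of *Ms4a6b* (TTCACAAGAA) and 13 bases before the start of *Ms4a7* in the window above (TTCCGGGGAA), and 6.95% of the 32851 promoter windows of the mouse hold one. Another *Ms4a7* window, at 11334646 to 11334945, held no match. The letters TTCNNNGAA of other STAT factors (8.30% of windows), the interferon response type (GAAA, any 2 bases and GAAA, 3.44%), TGATGNAA of the ATF4 and CEBP type (3.97%) and GAGGAAGT of the PU.1 type (3.20%), each searched on both strands, were not in any member's window. The shared runs lie farther along the *Ms4a6c* window than the *Ms4a6b* window. The *Ms4a6c* window therefore ends before the bases that would align to the *Ms4a6b* match, and those bases were not searched. A match is a description of letters and not of binding.

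Similar coding sequences can share reads, which bears on how well the genes can be told apart. The coding sequences of *Ms4a6b* and *Ms4a6c* were 85.2% identical, those of *Ms4a6b* and *Ms4a6d* 81.2%, and those of *Ms4a6c* and *Ms4a6d* 79.3%, whereas *Ms4a4a* and *Ms4a4c* were 68.3% identical. The share of 50-base stretches found in transcripts of another gene was 0% for *Ms4a4a*, 7.44% for *Ms4a4c* (mainly *Ms4a4b*), 3.48% for *Ms4a6b*, 2.77% for *Ms4a6d* and 0.476% for *Ms4a7*. For *Ms4a6c* it was 74.0%, because the gene *BE692007* covers 76.6% of its exon bases on the opposite strand. The strand setting of the counting was not given in the sources used here, so reads of *Ms4a6c* and *BE692007* may have been left out as ambiguous, and *BE692007* itself had 1 to 13 counts per library.

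Libraries held 16238727 to 26725278 reads in genes, with a median of 18999998. Levels are given in CPM, in which counts are scaled to a common library size. The 8 macrophage markers were expressed in every library. They summed to 31093 to 36950 CPM in naive macrophages and to 11426 to 13836 with IL-4/IL-13, so this sum was lower beside the members. It was 16442 to 18063 with tunicamycin, 8782 to 9611 in set A, 13445 to 15349 in set B and 13831 to 15562 with Sal003. The 4 T cell markers summed to at most 0.284 CPM, the 4 mast cell or basophil markers to at most 1.31, the 5 B cell markers to at most 3.24 and the 4 dendritic cell markers to at most 7.41. The 3 stromal markers summed to 9.89 to 74.1 in naive macrophages and to at most 44.2 in any other group. The 6 monocyte markers summed to 151 to 179 CPM in naive macrophages, 96.4 to 113 with IL-4/IL-13 alone and 9.75 to 28.7 with any inhibitor, so they were lower in every inhibitor group while most members were higher. The 6 markers of neutrophils and their precursors were also lower, from 31.4 to 61.2 in naive macrophages to 18.1 to 33.4 with IL-4/IL-13 and at most 18.4 with an inhibitor. The part of these cells and of the macrophage sum in the results was not tested.

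In IL-4/IL-13–treated macrophages, all 6 members were lower than in naive macrophages, in each of the 4 mice and without overlap between the groups. *Ms4a6b* and *Ms4a4c* nearly vanished, *Ms4a6c* and *Ms4a7* lost most of their signal, and *Ms4a6d* and *Ms4a4a* were only slightly lower. Genes were called at an adjusted *P* under 0.05 in edgeR's quasi-likelihood test over all genes, and by this rule 5 of the 6 members were called lower, where 60.5% of all genes tested were called, 30.4% were called lower and 30.1% were called higher. Groups without overlap were found for 49.7% of the genes tested. Nothing is read from these counts, as the members were chosen with results in view. The median log2 fold change of the members was −2.16, against −0.02 over all genes tested. In bulk RNA, a smaller share of cells that express a gene and less RNA of that gene per cell cannot be told apart.

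*Ms4a6b*, whose protein also modulates T cell activation, had 257, 230.4, 231 and 207 CPM in naive macrophages of mice 1, 2, 4 and 5. With IL-4/IL-13 it had 5.46, 4.64, 5.21 and 4.92 CPM. Every treated library thus stood far below every naive one, at 45.7-fold lower on the mean (log2 fold change −5.52 ± 0.43 SE, *n* = 4 libraries per group), and only 13 of 13679 genes had a lower fold change.

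*Ms4a4c* started from a lower level, with 48.6, 48.3, 46.2 and 35.6 CPM in naive macrophages. With IL-4/IL-13 it had 1.06, 1.06, 1.37 and 1.40 CPM, which rests on 19 to 26 reads per library. The difference was 36.5-fold (−5.19 ± 0.77 SE), and 20 genes had a lower fold change.

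*Ms4a6c* had 496, 447, 494 and 433 CPM in naive macrophages and 64.8, 64.9, 73.2 and 71.2 CPM with IL-4/IL-13. Unlike *Ms4a6b*, it remained well detected after the cytokines, at 6.82-fold lower (−2.77 ± 0.20 SE). *Ms4a7* had 585, 713, 576 and 519 CPM in naive macrophages and 193, 204, 221 and 197 CPM with IL-4/IL-13, a difference of 2.93-fold (−1.55 ± 0.09 SE). Both genes kept wide gaps between the groups, with the lowest naive library above the highest treated one by more than the spread within either group.

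*Ms4a6d* differed by less, with 196, 179, 192 and 143 CPM in naive macrophages and 119.8, 118, 139.8 and 119 CPM with IL-4/IL-13 (1.43-fold, −0.52 ± 0.11 SE). The highest treated library, of mouse 4, lay just under the lowest naive library, of mouse 5. *Ms4a4a*, the partner of dectin-1, had 194, 171, 169 and 154 CPM in naive macrophages and 110.3, 136, 146 and 129 CPM with IL-4/IL-13 (1.32-fold, −0.40 ± 0.18 SE). It was lower in 4 of 4 mice and was not called, but it was called with mouse as a block (−0.41), which made the count 6 of 6, and also without mouse 4 (−0.47).

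**Figure D2:**
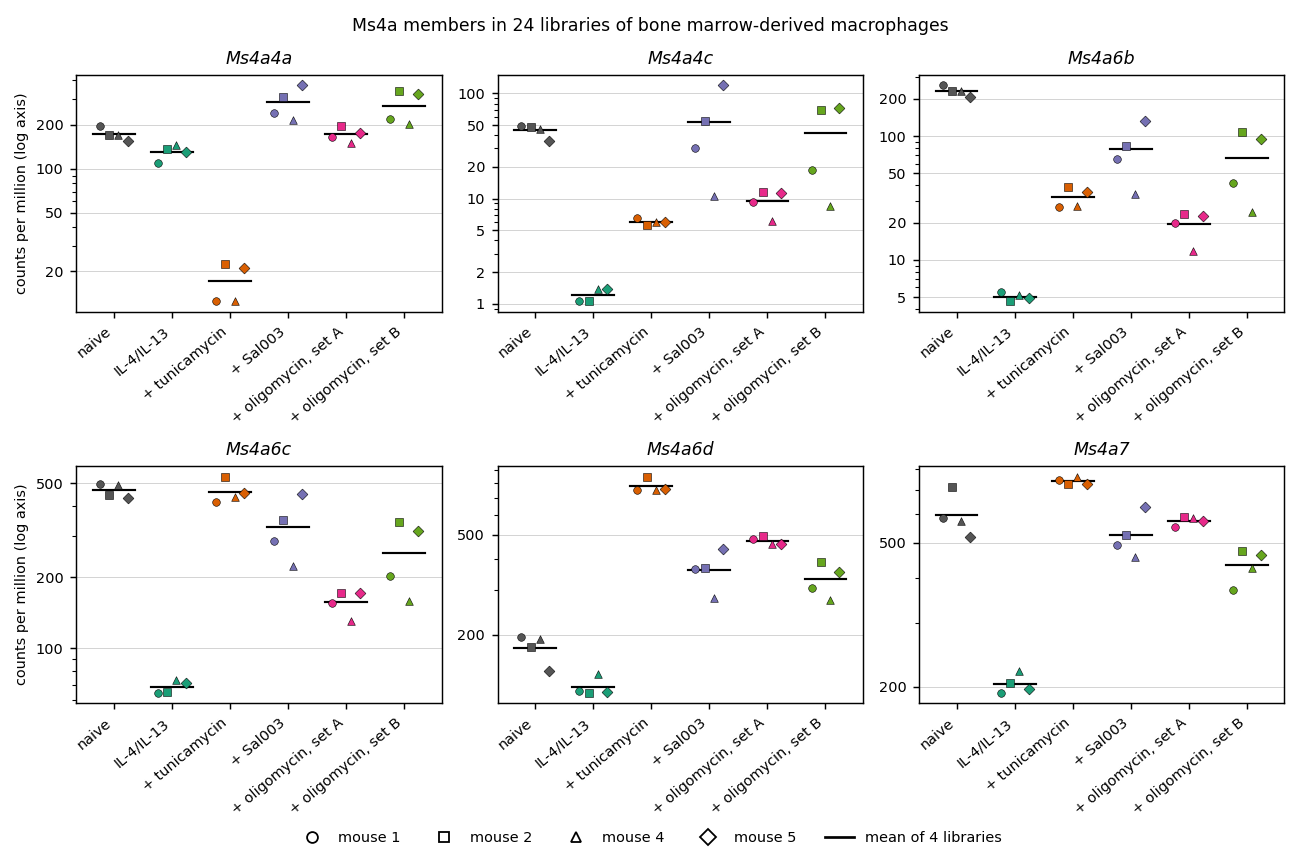
Level in CPM of each member (log axis) in the 6 groups, with 1 point per library, a symbol for each mouse and a line at the mean of 4 libraries. All members were lower with IL-4/IL-13 than in naive macrophages, and *Ms4a4a* alone was lower still with tunicamycin, at 12.5 to 22.4 CPM.

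Levels can be compared between genes only per length, here as CPM per kilobase of merged exons. In naive macrophages the order was *Ms4a7* (134 ± 18.4 SD), *Ms4a4a* (121 ± 11.6), *Ms4a6d* (102 ± 13.9), *Ms4a6c* (95.4 ± 6.61), *Ms4a6b* (51.3 ± 4.57) and *Ms4a4c* (24.1 ± 3.32), all with *n* = 4. The first 4 overlapped with their neighbors in this order, whereas *Ms4a6b* and *Ms4a4c* stood apart. With IL-4/IL-13 the order was *Ms4a4a* (91.6 ± 10.6), *Ms4a6d* (71.4 ± 6.12), *Ms4a7* (45.8 ± 2.85), *Ms4a6c* (14.0 ± 0.886), *Ms4a6b* (1.12 ± 0.0788) and *Ms4a4c* (0.658 ± 0.101), and the ranges of the first and second overlapped. When the length of the longest coding transcript was used instead, *Ms4a6c* and *Ms4a6d* changed places in naive macrophages. With that length *Ms4a7* moved above *Ms4a6d* with IL-4/IL-13, and in naive macrophages *Ms4a7* stood at 380 ± 52.0 and *Ms4a4a* at 206 ± 19.8. *Ms4a6c* may be placed too low in either case, as its reads overlapping *BE692007* may have been left out.

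The summed signal of the 6 members per kilobase was 528 ± 46.7 (SD, *n* = 4) in naive macrophages and 225 ± 18.7 with IL-4/IL-13. It was 732 ± 39.4 with tunicamycin, 640 ± 155 with Sal003, 563 ± 27.3 in oligomycin set A and 568 ± 129.7 in set B. The makeup of this sum, which depends on the lengths used, also differed between groups. *Ms4a4a* gave 22.9% of it in naive macrophages, 40.7% with IL-4/IL-13 and 1.63% with tunicamycin, whereas *Ms4a6d* gave 19.3%, 31.8% and 61.3% in the same groups. *Ms4a6b* gave 9.72% in naive macrophages and at most 2.59% in any other group, on the mean of 4 libraries. *Ms4a7* gave between 17.6% (set B) and 25.4% (naive macrophages) in all groups.

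Tunicamycin split the family. Relative to IL-4/IL-13 alone, 5 members were higher and *Ms4a4a* was lower, in 4 of 4 mice and without overlap in each case. All 6 were called, where 76.3% of all genes tested were called, 38.7% higher and 37.6% lower, and 73.9% had groups without overlap. The median log2 fold change of the members was 2.48, against 0.01 over all genes tested.

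*Ms4a4a* had 12.5, 22.4, 12.6 and 21.0 CPM with tunicamycin, which was 7.56-fold lower than with IL-4/IL-13 alone (−2.92 ± 0.20 SE) and 9.99-fold lower than in naive macrophages. These were its lowest values in the 24 libraries. *Ms4a6d*, in turn, reached its highest values, with 749, 849, 754 and 761 CPM, 6.28-fold above IL-4/IL-13 alone (2.65 ± 0.12 SE) and 4.38-fold above naive macrophages. It was the only member whose mean was more than 2-fold above the naive mean with any inhibitor.

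*Ms4a6c* had 416, 533, 439 and 453 CPM with tunicamycin, 6.72-fold above IL-4/IL-13 alone (2.75 ± 0.20 SE). These values overlapped with the naive ones, and the difference from naive macrophages was −0.02 ± 0.18 SE on the log2 scale. *Ms4a6b* had 26.9, 38.9, 27.5 and 35.2 CPM, 6.36-fold above IL-4/IL-13 alone (2.67 ± 0.45 SE) but still 7.19-fold below naive macrophages. The near copies thus had almost the same fold change with tunicamycin and ended at different distances from the naive level. *Ms4a4c* had 6.52, 5.66, 5.96 and 5.96 CPM, 4.93-fold above IL-4/IL-13 alone (2.30 ± 0.98 SE) and 7.40-fold below naive macrophages. Its call against IL-4/IL-13 alone was lost without mouse 1 (2.23) and without mouse 2 (2.27), although it was higher in 4 of 4 mice. Within a mouse, *Ms4a4c* with tunicamycin stood at 4.27 to 6.16 times its level with IL-4/IL-13 alone. The highest library was 1.15 times the lowest with tunicamycin and 1.32 times with IL-4/IL-13 alone. The SE and the call use a spread estimated over all 6 groups, among them Sal003 and set B, where the mice lay far apart. *Ms4a7* had 745, 730.1, 763 and 729.5 CPM, 3.64-fold above IL-4/IL-13 alone (1.86 ± 0.09 SE) and 1.24-fold above naive macrophages.

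**Figure D3:**
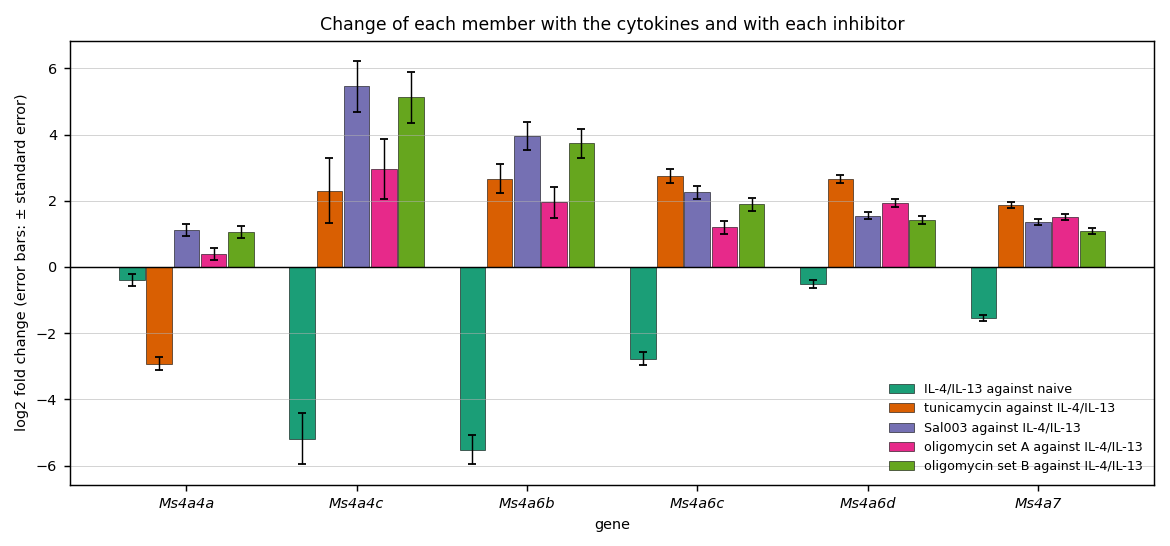
Log2 fold change of each member in 5 comparisons, with error bars of ± 1 standard error from the fit over all genes (*n* = 4 libraries per group). The inhibitor comparisons share the IL-4/IL-13 libraries, and the only downward inhibitor bar is that of *Ms4a4a* with tunicamycin at −2.92.

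Sal003 was followed by higher levels of all 6 members than with IL-4/IL-13 alone, in 4 of 4 mice and without overlap between the groups. All 6 were called, where 50.6% of all genes tested were called, 25.9% higher and 24.6% lower. Groups without overlap were found for 50.3% of genes. The median log2 fold change of the members was 1.90, against less than 0.01 over all genes tested.

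*Ms4a4c* had 30.2, 54.5, 10.5 and 119 CPM with Sal003, and 2 of 13679 genes had a larger fold change (44.0-fold, 5.46 ± 0.77 SE). The mice differed widely, with mouse 5 at 11.3 times the level of mouse 4, and without mouse 5 the log2 fold change was 4.76. *Ms4a6b* had 64.8, 83.0, 34.2 and 133 CPM (15.6-fold, 3.96 ± 0.43 SE), and *Ms4a6c* had 284, 348, 223 and 450.2 CPM (4.76-fold, 2.25 ± 0.20 SE). In all of these genes mouse 5 was highest and mouse 4 lowest. *Ms4a4a* had 242, 310.2, 214 and 371 CPM (2.18-fold, 1.12 ± 0.18 SE), *Ms4a6d* had 364, 369, 280.0 and 438 CPM (2.93-fold, 1.55 ± 0.11 SE), and *Ms4a7* had 494, 524, 456 and 628 CPM (2.58-fold, 1.37 ± 0.09 SE). The same order of mice, 5, 2, 1 and 4 from high to low, held for all 6 members with Sal003.

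In oligomycin set A, all 6 members again stood above IL-4/IL-13 alone in 4 of 4 mice without overlap, and 5 were called. In this comparison 66.2% of all genes tested were called, 34.0% higher and 32.2% lower, and 64.8% had groups without overlap. *Ms4a4a* was not called at 165, 195, 150.4 and 175 CPM (1.31-fold, 0.39 ± 0.18 SE), but it was called with mouse as a block (0.38), making the count 6, and without mouse 4 (0.51). *Ms4a6d* had 479.8, 492, 458 and 460.0 CPM (3.81-fold, 1.93 ± 0.12 SE). *Ms4a7* was close to its naive level, with 555, 590.2, 585 and 576 CPM (2.83-fold). *Ms4a6c* had 155, 171, 130.04 and 171 CPM (2.29-fold, 1.19 ± 0.19 SE), *Ms4a6b* had 19.9, 23.7, 11.8 and 22.8 CPM (3.87-fold, 1.95 ± 0.46 SE), and *Ms4a4c* had 9.19, 11.5, 6.18 and 11.2 CPM (7.82-fold, 2.97 ± 0.91 SE). All 3 of these genes stayed below every naive library in this set, and the call of *Ms4a4c* was lost without mouse 2 (2.80). Within a mouse, *Ms4a4c* in this set stood at 4.51 to 10.9 times its level with IL-4/IL-13 alone.

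In oligomycin set B, all 6 members were higher than with IL-4/IL-13 alone in 4 of 4 mice without overlap, and all 6 were called, where 54.3% of all genes tested were called, 27.9% higher and 26.4% lower, and 50.8% had groups without overlap. *Ms4a4c* had 18.7, 68.8, 8.54 and 72.6 CPM (34.9-fold, 5.13 ± 0.77 SE), and 7 genes had a larger fold change. *Ms4a6b* had 41.7, 107, 24.6 and 94.3 CPM (13.3-fold, 3.73 ± 0.43 SE). For both genes the libraries of mice 2 and 5 stood well above those of mice 1 and 4. *Ms4a6c* had 202, 343, 159 and 312 CPM (3.71-fold, 1.89 ± 0.19 SE), *Ms4a4a* had 219, 337, 203 and 321 CPM (2.07-fold, 1.05 ± 0.18 SE), *Ms4a6d* had 308, 389, 275 and 356 CPM (2.68-fold, 1.42 ± 0.11 SE), and *Ms4a7* had 372, 475, 425 and 462 CPM (2.13-fold, 1.09 ± 0.09 SE). Mouse 2 was highest in each of these 4 genes.

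The oligomycin sets themselves differed in all 6 members, and not in the same direction. *Ms4a6d* (0.51 ± 0.11 SE) and *Ms4a7* (0.41 ± 0.09 SE) were higher in set A than in set B, whereas *Ms4a4c* (−2.16 ± 0.55 SE), *Ms4a6b* (−1.78 ± 0.36 SE), *Ms4a6c* (−0.70 ± 0.19 SE) and *Ms4a4a* (−0.66 ± 0.17 SE) were lower in set A. Each direction held in 4 of 4 mice, and all 6 differences were called, where 41.2% of all genes tested were called, 19.9% higher and 21.3% lower in set A. The groups did not overlap for 4 members, against 41.6% of genes, and they overlapped for *Ms4a4c* and *Ms4a6c*, whose set B libraries were widely spread. A difference of at least 2-fold was reached by *Ms4a4c* and *Ms4a6b* only.

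Against naive macrophages, the inhibitor groups fell on both sides. *Ms4a6d* was above naive macrophages with every inhibitor, from 1.87-fold in set B to 4.38-fold with tunicamycin, and *Ms4a6b* was below in every inhibitor group, from 2.94-fold with Sal003 to 11.8-fold in set A. The difference of *Ms4a4c* from naive macrophages had no constant direction with Sal003 (0.27 ± 0.48 SE, higher in 2 of 4 mice, −0.58 without mouse 5 and −0.09 with mouse as a block) or in set B (−0.07 ± 0.48 SE, higher in 2 of 4 mice). With tunicamycin 5 members were called, 2 higher and 3 lower, where 77.6% of genes were called (37.1% higher, 40.5% lower), and *Ms4a6c* was not. Of the members, 5 had tunicamycin and naive groups without overlap, where 68.1% of genes did. With Sal003, where 62.5% of genes were called (31.7% higher, 30.8% lower), 4 members were called, namely *Ms4a4a* and *Ms4a6d* higher and *Ms4a6b* and *Ms4a6c* lower, and 3 did not overlap, where 50.0% of genes did not. The call of *Ms4a6c* with Sal003 (−0.52 ± 0.18 SE, lower in 3 of 4 mice) was lost without mouse 1 (−0.43) and without mouse 4 (−0.35). *Ms4a7* with Sal003 (−0.19 ± 0.09 SE) was called without mouse 5 (−0.34), with upper-quartile scaling (−0.24) and with at least 10 counts in every library (−0.21). In set A 4 members were called, 1 higher and 3 lower, where 71.0% of genes were called (35.5% higher, 35.5% lower), with *Ms4a4a* (−0.01 ± 0.17 SE) and *Ms4a7* (−0.05 ± 0.09 SE) not called, and 4 members did not overlap, where 60.3% of genes did not. In set B 5 members were called, 2 higher and 3 lower, where 63.8% of genes were called (32.6% higher, 31.2% lower), and 5 did not overlap, where 50.0% of genes did not.

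Ordered by mean level, tunicamycin ranked first for *Ms4a6d* and *Ms4a7* and last for *Ms4a4a*, Sal003 ranked first for *Ms4a4a* and *Ms4a4c*, and the naive group ranked first for *Ms4a6b* and *Ms4a6c*. IL-4/IL-13 alone ranked last for every member but *Ms4a4a*. The ranges of neighboring groups overlapped at 4 of 5 steps for *Ms4a4c* and *Ms4a6c*, at 3 of 5 for *Ms4a7*, at 2 of 5 for *Ms4a4a* and *Ms4a6b*, and at 1 of 5 for *Ms4a6d*, so the order of *Ms4a6d* was the best resolved.

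For *Ms4a4c*, *Ms4a6b* and *Ms4a6c*, the mice lay farther apart with Sal003 and in set B than in the other groups. For *Ms4a4c*, the highest library was 1.36 times the lowest in naive macrophages, 1.32 times with IL-4/IL-13 and 1.15 times with tunicamycin, but 11.3 times with Sal003 and 8.50 times in set B, and 1.86 times in set A. The same ratio for *Ms4a6b* was 3.87 with Sal003 and 4.36 in set B, against 2.01 in set A and 1.18 with IL-4/IL-13 alone, and for *Ms4a6c* it was 2.02 with Sal003, 2.16 in set B and 1.32 in set A. This was not particular to these genes. The ratios with Sal003 and in set B were also the largest for *Ms4a6d* (1.56 and 1.42) and, outside the members, for *Ms4a14* (1.64 and 1.76) and *Fcgr1* (2.14 and 2.19). For *Ms4a4a* the ratio was largest with tunicamycin (1.79). Mouse 4 was lowest for *Ms4a4a*, *Ms4a4c*, *Ms4a6b*, *Ms4a6c* and *Ms4a6d* in set A, set B and the Sal003 group alike, but in naive macrophages mouse 5 was lowest for all 6 members.

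A list of 20 interferon-type genes measured in the same libraries, among them *Ifit1*, *Isg15* and *Irf7*, followed a similar order of mice. Their summed level was 4674, 5362, 2988 and 7052 CPM with Sal003 in mice 1, 2, 4 and 5, and 3701, 5818, 2616 and 5689 CPM in set B. It was 3281, 3448, 2517 and 3527 CPM in set A, so mouse 4 was lowest in all 3 groups. Relative to naive macrophages, 18 of the 20 genes fell with IL-4/IL-13 (median log2 fold change −3.15), and relative to IL-4/IL-13 all 20 rose with Sal003 (3.10), 19 rose in set A (2.58) and 19 rose in set B (2.95). Over all genes 30.4% fell with IL-4/IL-13, and 34.0%, 27.9% and 25.9% rose in set A, set B and the Sal003 group. Tunicamycin was different, since 5 of the 20 rose and 6 fell (median 0.10), and the sum stayed at 599 to 628 CPM, below the 699.6 to 812 CPM of IL-4/IL-13 alone. The tunicamycin count of 11 calls, 76.3% being called over all genes, was 13 with mouse as a block, 7 without mouse 1 or without mouse 2 and 17 when only these 2 groups were fitted. Between the oligomycin sets 8 of the 20 were lower in set A and none was higher (21.3% and 19.9% of all genes), a count that was 10 with mouse as a block, 5 without mouse 1, 0 without mouse 2, 13 without mouse 4 and 3 without mouse 5. *Ms4a4c*, *Ms4a6b*, *Ms4a6c*, *Ms4a6d* and *Ms4a7* were above their IL-4/IL-13 level with tunicamycin although the interferon-type sum was not. *Ms4a4a* was below its IL-4/IL-13 level with tunicamycin (17.1 against 130 CPM on the mean), as was the interferon-type sum. The part of interferon in the levels of the members was not tested.

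**Figure D4:**
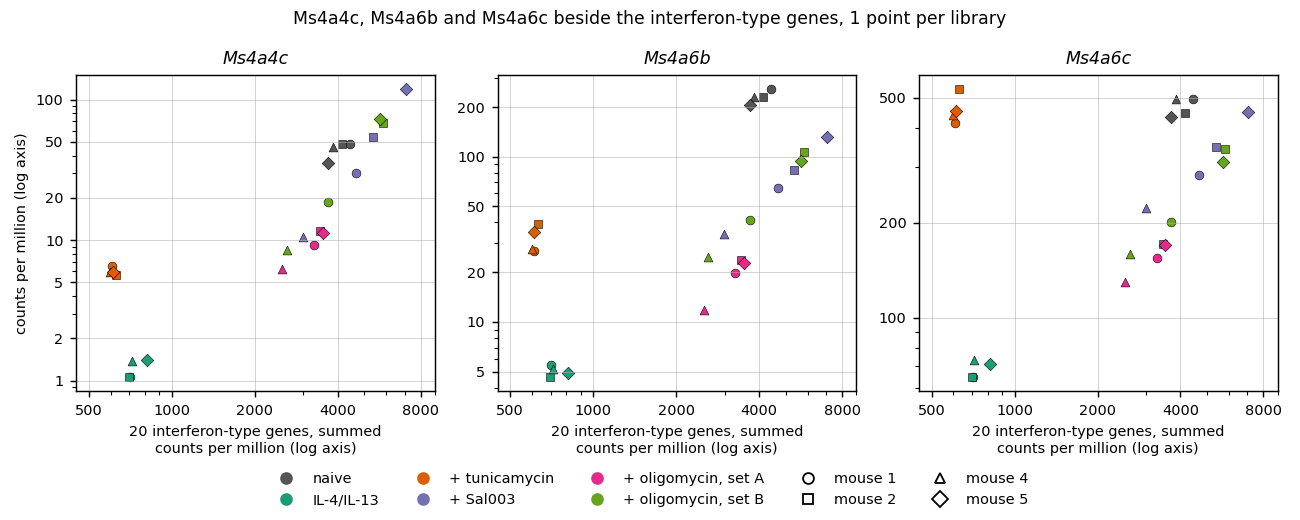
Level in CPM of *Ms4a4c*, *Ms4a6b* and *Ms4a6c* (log axis) against the summed CPM of 20 interferon-type genes (log axis), with 1 point per library, colored by group and shaped by mouse. With Sal003 and oligomycin the libraries run from mouse 4 at the lower left to mice 2 and 5 at the upper right, and the 4 tunicamycin libraries stand apart at a summed level of 599 to 628. *Ms4a4a*, *Ms4a6d* and *Ms4a7* are not shown.

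Of the 17 other Ms4a-type genes, which are the 15 other Ms4a genes and the related 4-span genes *Tmem176a* and *Tmem176b*, 5 passed the filter on low counts. Of these 5, 4 fell with IL-4/IL-13, 3 rose and 1 fell with tunicamycin relative to IL-4/IL-13 alone, and 2 rose and 2 fell in each of the other inhibitor groups. The shares called over all genes were 60.5% with IL-4/IL-13 (30.4% lower), 76.3% with tunicamycin, and 66.2%, 54.3% and 50.6% in set A, set B and the Sal003 group, and nothing is read from a count over 5 genes. The B cell gene *Ms4a1* and the mast cell gene *Ms4a2* had at most 7 counts in any library, and *Ms4a3*, a gene of granulocyte and monocyte precursors, had at most 8. *Ms4a4d* had at most 3 counts. No other gene of the cluster outside the expressed ones had more than 1. This list too was chosen with earlier results known, so the adjusted *P* values of its genes are a description.

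*Ms4a14*, the neighbor of *Ms4a7*, followed a pattern like it, with 143, 91.9, 113 and 115 CPM in naive macrophages and 46.4, 44.1, 38.0 and 40.5 CPM with IL-4/IL-13 (log2 fold change −1.45 ± 0.15 SE, adjusted *P* = 4.4e-09, edgeR). It rose to 133, 137, 129.7 and 135 CPM with tunicamycin (1.66 ± 0.15 SE, adjusted *P* = 1.9e-10) and to 144, 159, 142 and 163 CPM in oligomycin set A (1.85 ± 0.15 SE, adjusted *P* = 4.8e-11). The rise was smaller with Sal003 (0.75 ± 0.15 SE, adjusted *P* = 0.00014) and in set B (0.88 ± 0.15 SE, adjusted *P* = 1.5e-05). *Ms4a14* was therefore higher in set A than in set B (0.96 ± 0.14 SE, adjusted *P* = 4.8e-06), as were *Ms4a6d* and *Ms4a7*.

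*Ms4a8a*, described in subsets of alternatively activated macrophages, was scarce in all groups but set A. It had 7 to 11 counts with IL-4/IL-13 alone and 46, 55, 51 and 49 counts in set A of mice 1, 2, 4 and 5, a rise of 5.42-fold (2.44 ± 0.27 SE, adjusted *P* = 1.7e-08). In set B it had 3, 11, 3 and 9 counts, so that set A stood 7.50-fold above set B (2.91 ± 0.28 SE, adjusted *P* = 7e-09). Its levels with IL-4/IL-13 against naive macrophages (0.46 ± 0.36 SE, adjusted *P* = 0.29) and with tunicamycin (0.45 ± 0.32 SE, adjusted *P* = 0.21), Sal003 (0.52 ± 0.32 SE, adjusted *P* = 0.19) or set B (−0.47 ± 0.36 SE, adjusted *P* = 0.29) against IL-4/IL-13 did not pass the test, at a depth of 18 counts or fewer per library.

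*Ms4a4b*, which modulates T cell responses and shares sequence with *Ms4a4c*, had 43 to 49 counts in naive macrophages and 3 to 7 with IL-4/IL-13 (−2.99 ± 0.29 SE, adjusted *P* = 2.9e-09). With tunicamycin it had 1 to 3 counts in every library, at or under a floor of 3 counts per library. Set at that floor, it was at least 15.7-fold below the naive mean. No such bound is given against IL-4/IL-13 alone, which itself had 3 to 7 counts. The ratio of tunicamycin to IL-4/IL-13 alone within a mouse was 0.157 to 0.718. The tunicamycin call against IL-4/IL-13 alone (adjusted *P* = 0.0095) was lost without mouse 2 and without mouse 5, with fitted changes of −1.24 and −1.28. It rose with Sal003 to 10 to 21 counts (1.43 ± 0.34 SE, adjusted *P* = 0.001) and in set B to 7 to 21 counts (1.18 ± 0.35 SE, adjusted *P* = 0.0057), where the call was lost without mouse 2 (0.85). Set A gave 5 to 10 counts (0.28 ± 0.38 SE, adjusted *P* = 0.53), and the lower level in set A than in set B (−0.90 ± 0.33 SE, adjusted *P* = 0.03) was lost without mouse 1 (−0.75) and without mouse 2 (−0.71).

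*Tmem176a* and *Tmem176b*, a head-to-head pair on chromosome 6 whose proteins act on ion flow in endosomal membranes, fell with IL-4/IL-13 and rose with tunicamycin, but fell with Sal003 and in both oligomycin sets, where the members were higher. *Tmem176b* had 363, 491, 372 and 347 CPM in naive macrophages and 183, 191, 173 and 192 CPM with IL-4/IL-13 (−1.09 ± 0.09 SE, adjusted *P* = 4.3e-11). It then fell to 8.77, 8.29, 10.6 and 8.49 CPM with Sal003 (−4.35 ± 0.11 SE, adjusted *P* = 1.2e-19), to 2.98, 3.81, 3.72 and 3.65 CPM in set A (−5.70 ± 0.12 SE, adjusted *P* = 1e-21) and to 9.86, 7.66, 9.73 and 7.67 CPM in set B (−4.41 ± 0.11 SE, adjusted *P* = 4.5e-20). With tunicamycin it rose, to 288, 307, 286 and 276 CPM (0.65 ± 0.09 SE, adjusted *P* = 2e-07). *Tmem176a* changed in the same directions, by −0.94 with IL-4/IL-13 and then, relative to it, by 0.45 (tunicamycin), −4.03 (Sal003), −5.14 (set A) and −4.18 (set B). The genes overlap on opposite strands, over 17.0% of the exon bases of *Tmem176b*, so part of their reads cannot be assigned to one of them without the strand.

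**Figure D5:**
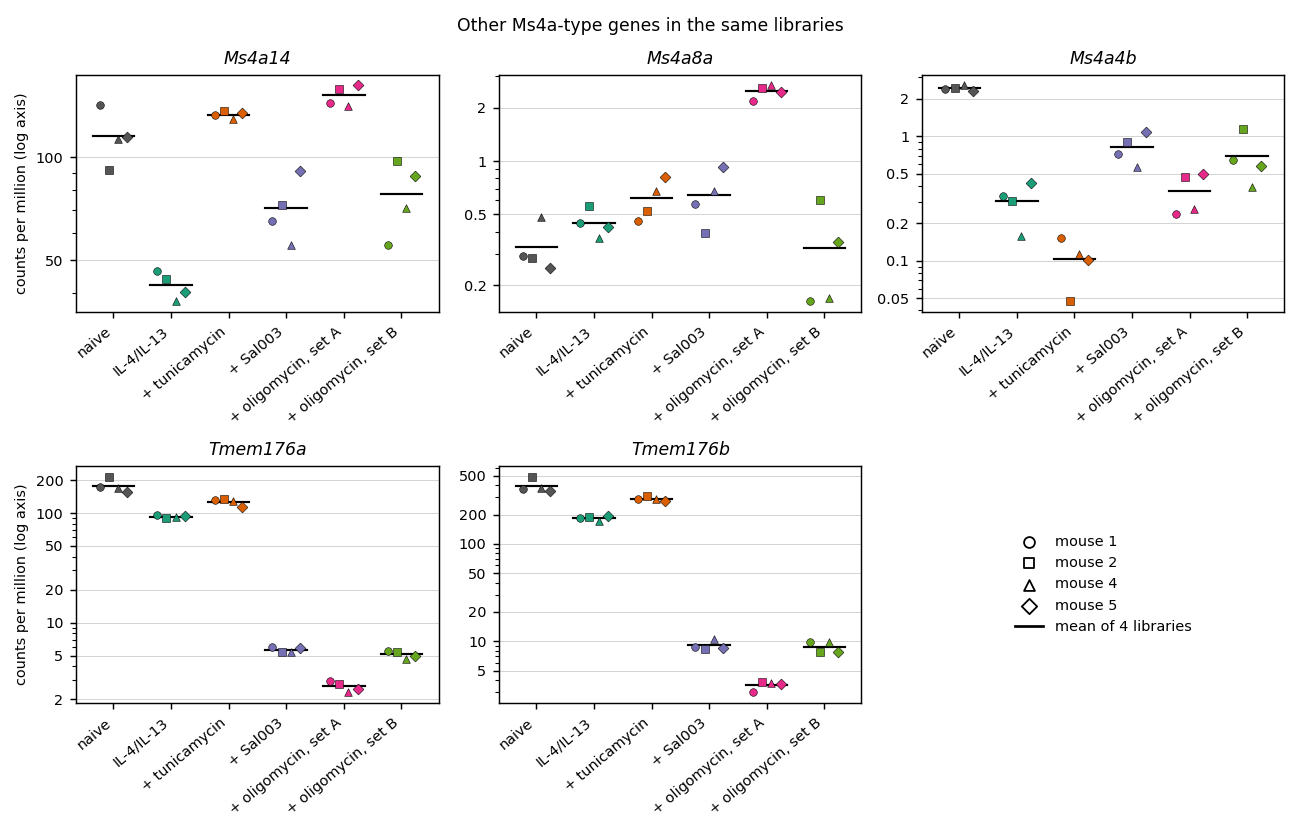
Level in CPM (log axis) of the 5 other Ms4a-type genes that passed the filter on low counts, with 1 point per library, a symbol for each mouse and a line at the mean of 4 libraries. *Tmem176a* and *Tmem176b* drop with Sal003 and in both oligomycin sets but not with tunicamycin, and *Ms4a8a* stands above 2 CPM in set A only.

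A list of 10 genes of immune receptors and adaptors of myeloid cells, called partner genes, was measured beside the members, and all 10 were tested. The name does not mean that each is known to work with an MS4A protein. With IL-4/IL-13, 3 rose and 5 fell, and relative to IL-4/IL-13 alone 4 rose and 6 fell with tunicamycin, 3 rose and 3 fell with Sal003 and in set B, and 1 rose and 7 fell in set A. Over all genes 60.5% were called with IL-4/IL-13, 76.3% with tunicamycin, and 66.2%, 54.3% and 50.6% in set A, set B and the Sal003 group. The counts of this list and its adjusted *P* values are a description only, as the list was chosen with earlier results known. With mouse as a block 9 in place of 8 were called in set A, through *Fcgr2b* (−0.14, adjusted *P* = 0.021), and 7 in place of 6 in set B, through *Tyrobp* (−0.15, adjusted *P* = 0.047). *Clec7a*, encoding dectin-1, rose from 264 ± 15.3 to 1073 ± 56.6 CPM (SD, *n* = 4) with IL-4/IL-13, while its partner *Ms4a4a* stood at 154 to 194 CPM and at 110.3 to 146 CPM. With tunicamycin *Clec7a* fell to 27.8 ± 3.48 CPM (38.7-fold, −5.27 ± 0.07 SE, adjusted *P* = 3.3e-26), the group in which *Ms4a4a* was also lowest. With Sal003 and in set B *Clec7a* was slightly higher than with IL-4/IL-13 alone (0.29 and 0.20 on the log2 scale, adjusted *P* = 0.00021 and 0.0054), and in set A it was lower (−0.72 ± 0.06 SE, adjusted *P* = 5.7e-11).

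Dectin-1 signals through the kinase SYK and the adaptor CARD9. *Syk* fell in all 4 inhibitor groups, by 0.87 on the log2 scale for tunicamycin, 0.13 for Sal003, 0.51 for set A and 0.24 for set B, whereas *Card9* rose with tunicamycin (0.45 ± 0.07 SE, adjusted *P* = 5.7e-06) and fell slightly in set A and set B (−0.22 and −0.23, adjusted *P* = 0.013 for each). *Trem2*, a lipid receptor whose protein signals through TYROBP, fell 8.27-fold with tunicamycin (−3.05 ± 0.09 SE, adjusted *P* = 2.1e-20) and slightly in set A (−0.28, adjusted *P* = 0.0036). It did not pass the test with IL-4/IL-13 (−0.10 ± 0.08 SE, adjusted *P* = 0.30), with Sal003 (0.04 ± 0.08 SE, adjusted *P* = 0.69) or in set B (0.01, adjusted *P* = 0.94). *Tyrobp* fell with tunicamycin (−0.78 ± 0.07 SE, adjusted *P* = 1e-10), in set A (−0.90, adjusted *P* = 1.3e-11) and with Sal003 (−0.23, adjusted *P* = 0.0052). *Fcer1g*, a shared signaling chain of Fc receptors, rose with tunicamycin (0.86 ± 0.07 SE, adjusted *P* = 1.1e-10) and fell in set A (−0.28, adjusted *P* = 0.0019). It did not pass the test with Sal003 or in set B (adjusted *P* = 0.19 and 0.35).

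The Fcγ receptors differed from each other. *Fcgr1*, the high-affinity IgG receptor, went from 497 ± 37.3 CPM in naive macrophages to 36.9 ± 2.58 CPM with IL-4/IL-13 (−3.75 ± 0.21 SE, adjusted *P* = 6.3e-14) and rose with tunicamycin (2.64), Sal003 (3.22), set A (2.86) and set B (3.11), each called. *Fcgr4* fell with IL-4/IL-13 (−2.40 ± 0.15 SE, adjusted *P* = 7.3e-13) and rose with tunicamycin (2.29-fold), Sal003 (2.57-fold) and set B (2.79-fold) but did not pass the test in set A (0.05 ± 0.16 SE, adjusted *P* = 0.78). The inhibitory receptor *Fcgr2b* rose 3.36-fold with IL-4/IL-13 (1.75 ± 0.07 SE, adjusted *P* = 7.3e-17) and fell with tunicamycin (−1.36 ± 0.07 SE, adjusted *P* = 2.5e-15). It did not pass the test with Sal003 (0.11 ± 0.07 SE, adjusted *P* = 0.20), in set A (−0.14 ± 0.07 SE, adjusted *P* = 0.077) or in set B (−0.03 ± 0.07 SE, adjusted *P* = 0.74). *Fcgr3* fell in all 4 inhibitor groups, most with tunicamycin (−2.18 ± 0.08 SE, adjusted *P* = 2e-18).

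The members did not share 1 pattern over the 24 libraries. On log2 CPM, Pearson's *r* was 0.92 between *Ms4a4c* and *Ms4a6b*, 0.87 between *Ms4a6b* and *Ms4a6c*, and 0.85 between *Ms4a6c* and *Ms4a7*, but −0.47 between *Ms4a4a* and *Ms4a6d* and 0.14 between *Ms4a6b* and *Ms4a6d*. The libraries fall into 6 groups of the same 4 mice, so these values describe the shared group levels and carry no test. The genes outside the family with the highest *r* to *Ms4a4c* were the interferon-inducible GTPases *Igtp* (0.96), *Iigp1* (0.95) and *Tgtp2* (0.95). For *Ms4a6b* they were the lysosomal phosphatase *Acp2* (0.96), *Sirpb1c* (0.96) and the interferon-induced *Ifit3b* (0.96), and for *Ms4a6c* *Milr1* (0.96), the sphingosine-1-phosphate receptor *S1pr2* (0.96) and the adrenergic receptor *Adra1a* (0.95).

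For *Ms4a4a* the closest was *Gm56663* (0.99), a noncoding RNA annotated on the same strand at chr19:11370203-11370687 of GRCm39, 49 bases past the end of *Ms4a4a*, with 1.02 to 38.0 CPM, followed by the RNA helicase *Mov10* (0.98) and the sterol carrier *Npc2* (0.98). For *Ms4a6d* they were *Cacybp* (0.98), the trafficking adaptor *Gga2* (0.97) and the helicase *Dhx30* (0.97), and for *Ms4a7* the helicase *Ddx41* (0.97), the lysosomal gene *Cln3* (0.97) and *Gm13012* (0.95). With a prior count of 0.5 the same 3 genes were found for every member, but over the 6 group means only 2 of 3 remained for *Ms4a6b* and *Ms4a7*, 1 for *Ms4a4a* and *Ms4a6d*, and 0 for *Ms4a4c* and *Ms4a6c*.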

How the data were processed

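RNA-seq libraries of 24 BMDM cultures were made with a poly(A) mRNA kit. The authors trimmed reads with Cutadapt 1.8, used STAR 2.7 for alignment to GRCm39 and htseq-count 0.9.1 for gene counts, and the deposited counts are raw and not normalized. Lines of no gene (12.74 to 15.231% of reads) were left out. A second table of TPM values from RSEM was not used, because its header had 28 names over 25 cells per line. The members and all gene lists were chosen with earlier results of these data known.

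Counts were tested in edgeR 4.0.16 (R 4.3.3) with TMM scaling, filterByExpr and 1 quasi-likelihood model over 24 libraries, with Benjamini-Hochberg adjustment over 13679 genes and calls at an adjusted *P* under 0.05. CPM use TMM-scaled library sizes. The fit was also run on simulated counts with the same spread for every gene and no effect of mouse. As the data differ in both, that run cannot show how well the calls and SE hold here, and nothing is read from it. Adjusted *P* values and SE rest on the spread between cultures of 4 mice within groups, estimated for each gene over all 6 groups. Each SE was derived from the test, as the absolute log2 fold change divided by the square root of its F statistic. The spread of groups outside a comparison thus enters its SE. For *Ms4a4a* with IL-4/IL-13 against naive the SE was 0.18, and it was 0.09 with only the 2 groups compared. Libraries of the same number came from the same mouse, and after removal of group means they correlated at a median of 0.24 (56 of 60 pairs over 0.1), against −0.05 for different mice. Named genes were the 6 members, other Ms4a-type genes passing the filter, the 10 partner genes and, per member, the 3 genes outside the family with the highest Pearson's *r* of log2 CPM (prior count 2). Alternatives were DESeq2 1.42.0, upper-quartile scaling, other filters, mouse as a block, each mouse left out, only the 2 groups compared and a 2-fold minimum. The length of the longest coding transcript was an alternative chosen after seeing the data.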

Additional observations from a re-analysis of the deposited data

Results flagged for a closer look

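Among 66 groups of 4 libraries checked, 2 held a library whose gap to the others exceeded Dixon's critical share of the group's range, and chance gives about 1 in 20. *Ms4a6d* with IL-4/IL-13 alone was 140 CPM in mouse 4, against 118 to 120 in the other mice. *Ms4a6d* with tunicamycin was 849 CPM in mouse 2, against 749 to 761 in the other mice. Neither library changed the direction of a difference of *Ms4a6d*.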

How the results depend on the processing

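For the 6 members, 60 log2 fold changes were recomputed under the alternatives, which gave 600 values. Of these, 582 kept their side of the threshold, 5 lost the call, 13 gained it and 0 changed sign as a called value. Among the 582, 11 uncalled values of 5 fold changes turned their sign. For the other Ms4a-type genes, 459 of 472 values kept their side, 3 of them uncalled values of 1 fold change that turned their sign, 11 lost the call and 2 gained it. With mouse as a block, the members called went from 5 to 6 both with IL-4/IL-13 against naive and in set A against IL-4/IL-13, through *Ms4a4a* (−0.41 and 0.38), and the block changed no other call of a member. *Ms4a4a* against naive was also called with upper-quartile scaling, without a filter, with at least 10 counts in every library and with only the 2 groups compared.

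With at least a 2-fold change required as well, the members called were 2 in place of 6 between the oligomycin sets, 2 in place of 4 for Sal003 against naive and 1 in place of 5 for set B against naive. Without a filter on low counts, 7 in place of 4 other Ms4a-type genes were called in set A against IL-4/IL-13, as more genes were tested, and with at least 10 counts in every library 3 in place of 5 were called between the sets, as fewer were tested. Interferon-type calls with tunicamycin were 17 in place of 11 with only the 2 groups compared, 13 with the block and 7 to 12 with a mouse left out. Between the sets they were 10 with the block and 0 to 13 with a mouse left out, in place of 8. The cause was not tested. Depth limits *Ms4a4c* with IL-4/IL-13 (19 to 26 reads), *Ms4a4b* and *Ms4a8a*.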
